A study of Mus musculus with 9 samples.

Results

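Collagens, laminins and integrins are the genes described here, chosen by symbol alone: every gene of the deposited table named Col, number, a, number, every laminin chain gene and every integrin alpha or beta gene, leaving out binding proteins. The rule found 77 of 21210 genes, namely 41 collagens, 11 laminins, 24 integrin subunits and Itgbl1, a secreted integrin-beta-like protein that the symbol rule takes in. They were measured in poly-A RNA of mouse lateral cortex (strain C57BL/6) at embryonic day 14.5, in 3 groups of 3 libraries. All embryos carried a reporter of Btg2, a gene that marks progenitors about to make neurons, and a reporter of Tubb3, a neuronal tubulin. Proliferating progenitors were the cells without red Btg2 fluorescence, differentiating progenitors the cells with it, and neurons the cells with green Tubb3 fluorescence. The labels disagree on the Btg2 reporter, which is red in the titles and green in the genotype field, and the groups follow the titles.

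Meninges and ganglionic eminences were taken off before the tissue was dissociated, and each library came from a pool of sorted cells of several embryos from different litters. The gate for proliferating progenitors is a negative one, so any cell without red fluorescence, blood vessel and remaining meningeal cells included, can fall into it. Because the samples are bulk RNA, fewer cells of a type and less RNA per cell cannot be told apart. The p-values measure the spread between these pools.

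Laminins are cross-shaped trimers of an alpha, a beta and a gamma chain that polymerise into the sheet of every basement membrane, and collagen IV forms the second network of that sheet, tied to the laminins by nidogens and perlecan. Integrins are receptors made of an alpha and a beta subunit that hold cells to this matrix and signal through talin, vinculin and the parvins. In the embryonic cortex, radial glia attach by their end-feet to the basement membrane under the pia, and loss of laminin, integrin or dystroglycan function there is known to break that membrane and let neurons spill through it. Vessels and meninges have their own matrix, in which collagens I, III and VI are typical of fibroblasts and mural cells.

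Normalised totals lay between 17531558 and 22076409 per library, and counted reads were estimated at about 12653597 to 27561060. Summed radial glia markers fell from 143662 to 160267 in proliferating progenitors to 69500 to 99369 in differentiating progenitors and 6684 to 8518 in neurons, and neuronal markers ran the other way (2466 to 6118, 27359 to 33766 and 146775 to 172319). Markers of other cells were present in the negative gate: endothelial genes summed to 328 to 900 in proliferating progenitors, 293 to 378 in differentiating progenitors and 95 to 160 in neurons. Mural cell genes summed to 644 to 1258, 214 to 266 and 58 to 73, meningeal genes to 190 to 344, 154 to 189 and 113 to 136, and red blood cell genes to 71343 to 180810, 172 to 1506 and 141 to 201. Single markers within the endothelial, mural and meningeal sums did not all run the same way. From proliferating progenitor replicate 1 to 3 the endothelial sum rose, as did Tie1, whereas Slco1c1 of the same list read 78, 75 and 65. Kdr, also endothelial, was higher in differentiating than in proliferating progenitors in replicates 1 and 2, and lower in replicate 3. The mural gene Tagln read 12, 5 and 12 in proliferating progenitors and 15, 13 and 13 in neurons. Single meningeal markers are given below. Libraries of equal replicate number deviated together from their group means. A second fit took the replicate number as a block, so that libraries of equal number are compared with each other, and its adjusted p is given where it changed a call.

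Most of these genes had their highest mean in the negative gate of proliferating progenitors, into which other cells can fall. The mean was highest in proliferating progenitors for 50 of the 77 genes, in neurons for 19 and in differentiating progenitors for 8. Among the genes tested below, it was so for 42, 15 and 7. The same share over all genes was not counted. In 3 or more libraries, 64 genes read 10 or higher (34 collagens, all 11 laminins, 18 integrins and Itgbl1), and these were tested in a limma fit over all 15828 genes that passed. The other 13 did not reach 10 in 3 libraries and were not tested, with a highest value of 117 in any library, reached by Col6a1 in proliferating progenitor replicate 3. A gene high in a single group passes the filter through that group, which favours a call of higher there. Lamc3 and Col4a3 reached 10 in proliferating progenitors only, and Col1a2, Col6a3, Col17a1 and Itgam passed only with the libraries of that group. The counts that follow therefore describe the tested genes and not the whole set.

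From proliferating to differentiating progenitors, 7 of the 64 tested genes were called higher and 22 lower at a Benjamini-Hochberg adjusted p of 0.05, where 13.8% of all tested genes were called higher and 11.1% lower. Their median log2 difference was -0.64, against -0.02 over all tested genes. With the replicate block, 8 were higher and 33 lower, against a background of 24.0% and 22.0%. Without proliferating progenitor replicate 2 or 3 or differentiating progenitor replicate 2 or 3, the number lower was 13, 12, 10 and 13, and over all tested genes it went from 1758 to 1114, 1193, 1076 and 1108. From differentiating progenitors to neurons, 10 were higher and 34 lower, with 27.6% and 26.4% of all tested genes called, and the median was -1.40 against -0.01. With the block, 13 were higher and 40 lower, against a background of 35.8% and 35.5%. Between neurons and proliferating progenitors, 10 were higher and 39 lower, with 32.2% and 31.1% of all tested genes called, and the median was -2.19 against -0.02. With the block, 14 and 43 were called, against 38.7% and 39.5%. These comparisons share libraries, so each is read on its own. When every library was scaled to the same total, the median over all tested genes moved to -0.09, -0.23 and -0.31 in the same order. The calls over all genes moved from 2186 higher and 1758 lower to 1880 and 2254, from 4368 and 4183 to 3353 and 5589, and from 5099 and 4924 to 3869 and 6605. The members under that scaling counted 6 higher and 23 lower, 9 and 37, and 9 and 41. By the authors' deposited adjusted p, 7 of the 77 members were higher and 11 lower between progenitors. In this comparison 11 calls of the unblocked fit were not theirs. In neurons they had 9 higher and 32 lower against differentiating and 12 and 34 against proliferating progenitors. There, 3 and 6 calls of the fit were not theirs, and 0 and 3 of theirs were not called in the fit. Those 3 were Col6a4, Col28a1 and Itgb2 (their adjusted p 0.039, 0.017 and 0.041), which did not reach the filter and were not tested.

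**Figure D1:**
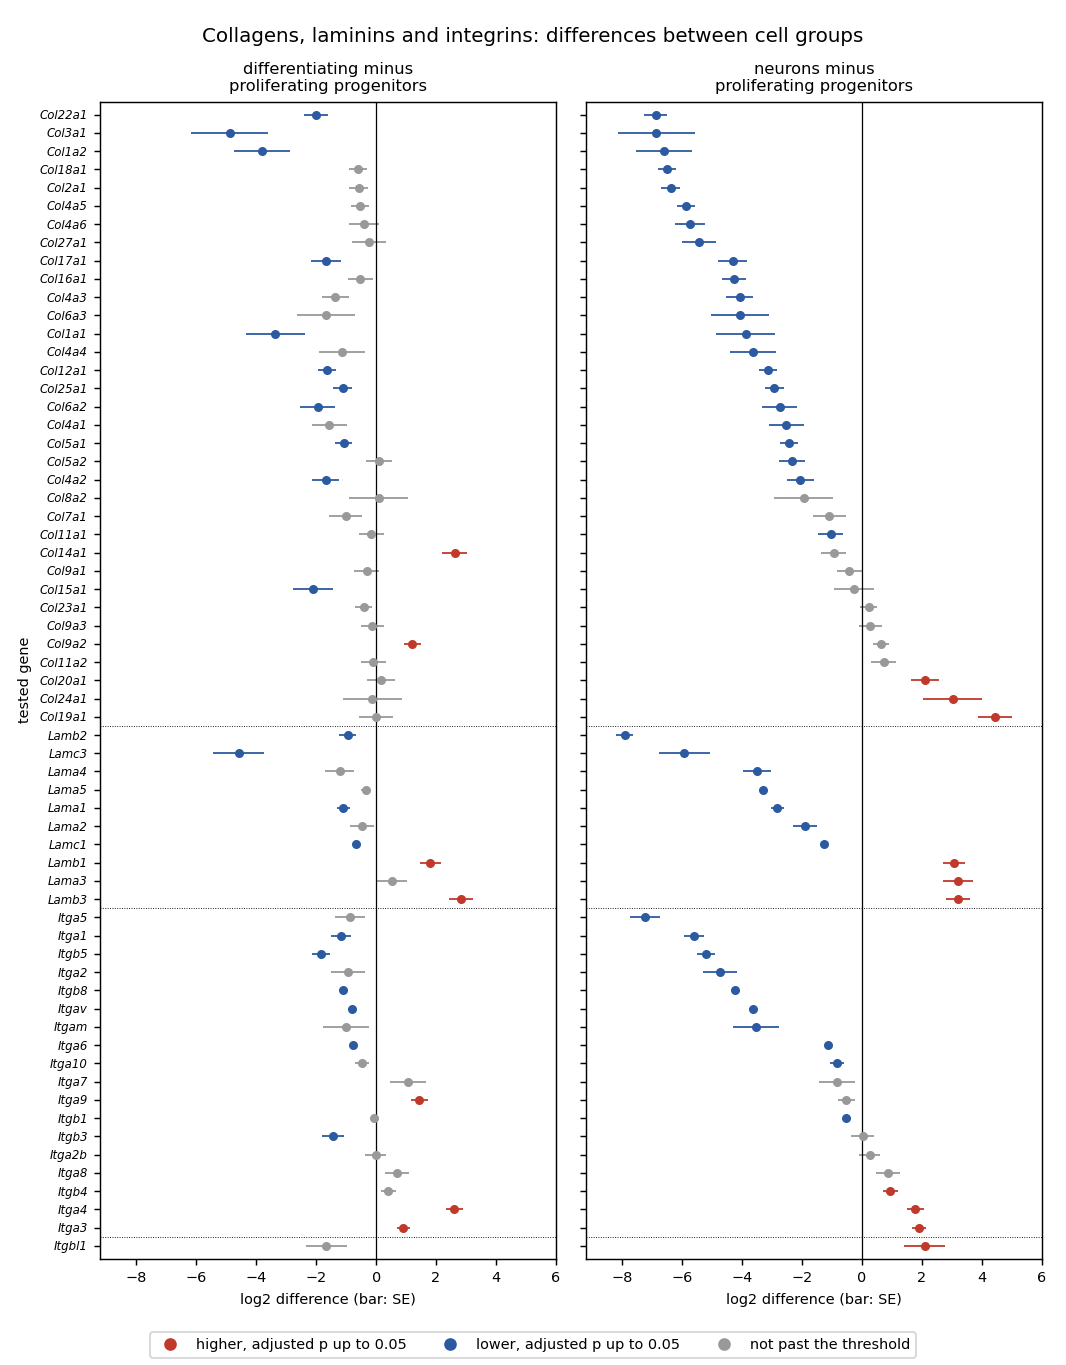
Log2 difference of 63 of the 64 tested genes, with differentiating minus proliferating progenitors on the left and neurons minus proliferating progenitors on the right, bars giving the SE and colours the call at an adjusted p of 0.05. The scale runs from Lamb2 at -7.92 to Col19a1 at 4.43 in neurons, and 39 genes are called lower there against 10 called higher.

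Among the laminins, the beta chains changed places. Lamb2 and Lamb1 encode beta chains that take the same position in the laminin trimer. Their upstream sequences are shown because these 2 genes moved in opposite directions in the same cells. Each is the longest stretch, within 250 bases before the RefSeq start on GRCm38.p6, that lies outside every annotated gene, read 5′ to 3′ on the gene's own strand.
Lamb2: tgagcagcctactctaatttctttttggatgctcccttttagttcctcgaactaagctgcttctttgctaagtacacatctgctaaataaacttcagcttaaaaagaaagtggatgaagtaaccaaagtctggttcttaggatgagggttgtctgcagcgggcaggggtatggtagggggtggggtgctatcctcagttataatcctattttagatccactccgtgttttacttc
Lamb1: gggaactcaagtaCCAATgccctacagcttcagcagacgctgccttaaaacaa

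The Lamb2 stretch lies on the plus strand at chr9:108479612-108479846 (235 bases, 43.0% G or C), ending 16 bases before the start. The Lamb1 stretch lies on the plus strand at chr12:31265093-31265145 (53 bases, 49.1% G or C), because the annotated gene Gm32899 and Lamb1 itself cover the rest of the window. Capitals mark matches, on either strand, to any of 4 motifs, the GC box GGGCGG, the CCAAT box, the TATAAA box and the E-box CAGCTG, and no matches overlapped. Lamb1 held 1 CCAAT, which 7.45% of all 32851 upstream windows hold in a stretch of the same length and position. Lamb2 held none of the 4, which says only that these letters are not in this stretch.

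Lamb2 was at 3202, 3977 and 4638 normalised read counts in replicates 1, 2 and 3 of proliferating progenitors, at 2030, 1743 and 2315 in differentiating progenitors, and only at 9, 20 and 19 in neurons. The 3 groups did not overlap, and the neurons kept almost none of it. The log2 difference was -0.95 (SE 0.28, adjusted p = 0.0353) between the progenitor groups and -7.92 (SE 0.28, adjusted p = 3.31e-08) between neurons and proliferating progenitors. The call between progenitors ended without proliferating progenitor replicate 2 (0.0972) or 3 (0.12) or differentiating progenitor replicate 1 (0.0661), 2 (0.124) or 3 (0.0631), and without the intensity trend (0.0527). The replicate block kept it, at an adjusted p of 0.00257.

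Lamb1 was at 132, 271 and 430 in proliferating progenitors, at 689, 1025 and 958 in differentiating progenitors and at 1828, 2242 and 2189 in neurons. It was lowest where Lamb2 was highest, and again no groups overlapped. Lamb1 rose by 1.81 on the log2 scale between the progenitor groups (SE 0.36, adjusted p = 0.00637) and by 1.24 from there to neurons (SE 0.36, adjusted p = 0.0169). The second rise was no longer called without differentiating progenitor replicate 1 (0.0558), neuron replicate 2 (0.0527) or neuron replicate 3 (0.0504). Per kilobase of deposited gene length, Lamb2 made up 96.3 ± 1.36% (SD, n = 3) of the summed level of the 3 beta chains in proliferating progenitors, 79.6 ± 4.45% in differentiating progenitors and 1.29 ± 0.384% in neurons. Lamb1 made up 3.67 ± 1.36%, 20.0 ± 4.52% and 97.6 ± 0.12%. The ranges of the 3 groups did not overlap for either share.

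Lamb3, the beta chain that joins Lama3 in epithelial laminin, stayed at trace level: 0, 1 and 0 in proliferating progenitors, 9, 6 and 9 in differentiating progenitors and then 12, 10 and 10 in neurons. It was called higher in differentiating than in proliferating progenitors (adjusted p = 0.00107). Lama3 was at 1, 0 and 2, then 1, 2 and 2, then 12, 23 and 14, and was called higher in neurons than in either progenitor group (adjusted p = 0.000378 and 0.00149). Lamb3 and Lama3 reached 10 in neurons only and were tested because of those libraries. The filter thus favoured a call of higher in neurons for them.

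Lamc1 encodes the gamma chain of most laminins and is needed for basement membrane assembly. Its values were 2462, 3038 and 2807 in proliferating progenitors, 1842, 1754 and 1651 in differentiating progenitors and then 1115, 1254 and 1062 in neurons. It fell in both steps without overlap, by 0.66 (SE 0.10, adjusted p = 0.0018) and by 0.61 (SE 0.10, adjusted p = 0.00079) on the log2 scale. Neurons thus kept a substantial level of Lamc1, unlike Lamb2.

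Among alpha chains, Lama1, typical of the earliest basement membranes and of the pial one, was at 1542, 1901 and 2423 in proliferating progenitors and 1054, 713 and 964 in differentiating progenitors, while the neurons had 208, 311 and 304. Lama5, the widely used alpha chain of later basement membranes, was at 1617, 1799 and 2162, then 1243, 1566 and 1574, then 183, 169 and 205. Both were much lower in neurons than in proliferating progenitors, with log2 differences of -2.83 (SE 0.22, adjusted p = 3.73e-06) and -3.31 (SE 0.14, adjusted p = 8.58e-08). Between the progenitor groups Lama1 fell by 1.10 (SE 0.22, adjusted p = 0.00689), whereas Lama5, with a log2 difference of -0.35 (SE 0.14), did not pass (adjusted p = 0.117) except with the replicate block (0.00889).

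The vessel-associated Lama4 was at 55, 105 and 178, then 50, 41 and 38, then 4, 12 and 10, and Lama2, the alpha chain of muscle and vessel basement membranes, at 53, 112 and 141, then 48, 101 and 66, then 25, 30 and 20. Both were lower in neurons than in proliferating progenitors (adjusted p = 0.000148 and 0.00242). Lama4 did not pass between the progenitor groups (log2 difference -1.22, SE 0.48, adjusted p = 0.0972) but did with the block (0.0238) and without proliferating progenitor replicate 1 (0.0301). Lamc3 was at 32, 69 and 194 in proliferating progenitors, 7, 0 and 3 in differentiating progenitors and then 0, 0 and 1 in neurons. It was highest in the negative gate (log2 difference -4.59 between the progenitor groups, SE 0.85, adjusted p = 0.0043). In the authors' deposited table the adjusted p of this comparison was 0.13. Lamc3 reached 10 in proliferating progenitors only, so the filter favoured this call. The 3 libraries of the negative gate stood in the same order as their endothelial (328, 470 and 900) and mural (644, 961 and 1258) marker sums, whose part in the result was not tested. Lamb2 and Lama1, with smaller spreads, stood in that order too.

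Per kilobase, the 5 alpha chains summed to 116 ± 20.5% of Lamc1 in proliferating progenitors, 111 ± 11.8% in differentiating progenitors and 36.2 ± 5.56% in neurons. The 3 beta chains summed to 217 ± 33.5%, 215 ± 35.1% and 156 ± 18.4% of it (SD, n = 3). The alpha share was lower in all 3 neuron libraries (31.1%, 35.5% and 42.2%) than in any progenitor library (103% to 140%), and for the beta chains the neuron libraries (140%, 153% and 176%) also lay below all progenitor libraries (194% to 256%).

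**Figure D2:**
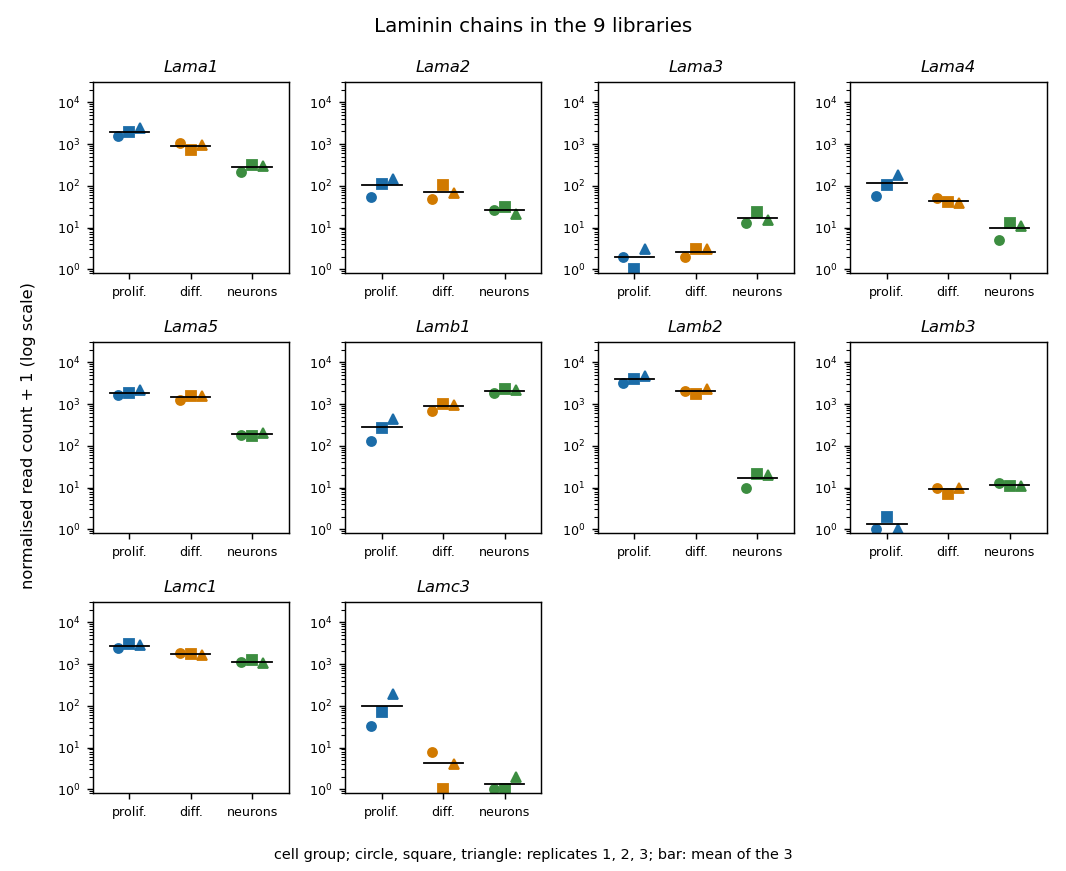
Normalised read counts plus 1 (log scale) of 10 laminin chains in the 9 libraries, 1 point per replicate and a bar at the mean of each group of 3. Lamb2 drops from 3202 or more in proliferating progenitors to 20 or less in neurons, while Lamb1 climbs from 430 or less to 1828 or more.

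The collagen IV chains split into pairs. Their genes lie in neighbouring pairs in the RefSeq gene order, Col4a1 beside Col4a2, Col4a3 beside Col4a4 and Col4a5 beside Col4a6. The stretches upstream of Col4a5 and Col4a6, chosen in the same way as those above, are shown because these 2 neighbours fell together.
Col4a5: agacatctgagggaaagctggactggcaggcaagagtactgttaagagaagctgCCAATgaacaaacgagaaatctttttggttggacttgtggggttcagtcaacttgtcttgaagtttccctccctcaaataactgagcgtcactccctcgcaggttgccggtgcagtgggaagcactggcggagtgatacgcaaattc
Col4a6: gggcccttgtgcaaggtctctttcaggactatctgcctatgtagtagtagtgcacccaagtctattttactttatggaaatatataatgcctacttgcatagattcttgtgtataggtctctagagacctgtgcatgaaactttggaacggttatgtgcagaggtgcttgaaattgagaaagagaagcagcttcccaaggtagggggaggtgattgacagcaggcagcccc

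The Col4a5 stretch is at chrX:141475169-141475369 on the plus strand (201 bases, 49.8% G or C) and the Col4a6 stretch at chrX:141474096-141474326 on the minus strand (231 bases, 45.5% G or C). Col4a5 held 1 CCAAT, a match that 28.6% of all upstream windows hold in a stretch of that length and position, and Col4a6 held none of the 4 motifs. Of all 77 genes, 56 had an entry in the promoter table.

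Col4a5 was at 937, 1428 and 1817 in proliferating progenitors, 775, 850 and 1193 in differentiating progenitors and then 15, 24 and 28 in neurons. Col4a6 was at 328, 431 and 505, then 297, 278 and 365, then 12, 11 and 2. Both were held by the 2 progenitor groups at overlapping levels and were nearly gone from neurons. The log2 differences between neurons and proliferating progenitors were -5.89 (SE 0.30, adjusted p = 2.17e-07) for Col4a5 and -5.74 (SE 0.50, adjusted p = 7.31e-06) for Col4a6. Between the progenitor groups Col4a5 passed only with the replicate block (adjusted p = 0.0032, against 0.238 without it) and with replicates 2 and 3 alone (0.0313), and Col4a6 had a log2 difference of -0.41 (SE 0.50, adjusted p = 0.637).

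Col4a1 and Col4a2, the chains of the collagen IV found in all basement membranes, behaved differently. Col4a1 was at 410, 1094 and 2572 in proliferating progenitors and 289, 311 and 496 in differentiating progenitors, while the neurons had 122, 202 and 241. Col4a2 was at 337, 657 and 1445, then 201, 183 and 258, then 136, 175 and 182. Their values spread 6.27-fold and 4.29-fold between the 3 libraries of proliferating progenitors, in the order of the endothelial and mural marker sums. Col4a5 and Col4a6 stood in the same order with spreads of 1.94-fold and 1.54-fold. Within this group the pairs thus differed in the size of the spread and not in the order. The part of endothelial and mural cells in the result was not tested. Neurons kept Col4a1 and Col4a2 at lower levels than proliferating progenitors, with log2 differences of -2.53 (SE 0.58, adjusted p = 0.00393) and -2.06 (SE 0.44, adjusted p = 0.00253). In the authors' deposited table the adjusted p of these 2 comparisons was 0.067 and 0.06.

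Between the progenitor groups the log2 difference was -1.56 (SE 0.58) for Col4a1 and -1.69 (SE 0.44) for Col4a2. Col4a1 passed with the block (adjusted p = 0.00203) and without proliferating progenitor replicate 1 (0.00627) but not in the fit without a block (0.0828), and with the block it also passed between neurons and differentiating progenitors (log2 difference -0.97, adjusted p = 0.0147, against 0.194 without it). Col4a2 passed (0.0214), and the call ended without proliferating progenitor replicate 2 (0.0593) or differentiating progenitor replicate 2 (0.0774). In the authors' deposited table the adjusted p of this Col4a2 comparison was 0.26. Per kilobase, Col4a5 and Col4a6 made up 60.8%, 50.0% and 35.7% of all collagen IV in the libraries of proliferating progenitors. The share was 67.0%, 68.1% and 66.1% in differentiating progenitors. In neurons they made up 8.58%, 8.09% and 6.57%, and Col4a1 with Col4a2 88.4%, 91.7% and 93.4%. The neuron libraries lay apart from all 6 progenitor libraries, whose 2 groups also did not overlap.

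Col4a3 and Col4a4, chains known from kidney and inner ear, stayed at 41 or less. Both were lower in neurons than in proliferating progenitors (adjusted p = 3.56e-05 and 0.0025). With the block, Col4a3 was also lower in differentiating than in proliferating progenitors (adjusted p = 0.0397, against 0.0558). Col4a3 reached 10 in proliferating progenitors only, so the filter favoured its calls.

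Col2a1, the fibrillar collagen of cartilage, was the most abundant collagen of progenitors. Its values were 5645, 8677 and 12224 in proliferating progenitors, 4570, 4914 and 7959 in differentiating progenitors and then 72, 114 and 120 in neurons. Per kilobase it made up 44.6 ± 2.34%, 47.5 ± 2.14% and 3.68 ± 0.0947% of the summed collagen level. The log2 difference between neurons and proliferating progenitors was -6.39 (SE 0.32, adjusted p = 2.08e-07). Between the progenitor groups, which overlapped, it was -0.58 (SE 0.32), called only with the block (adjusted p = 0.00277, against 0.239) and with replicates 2 and 3 alone (0.0485).

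Col18a1 is a basement membrane proteoglycan whose end fragment is endostatin. It was at 1409, 1745 and 2719, then 1325, 902 and 1563, then 22, 15 and 23. Like Col2a1, it was present in both progenitor groups and close to absent in neurons (log2 difference -6.51 from proliferating progenitors, SE 0.29, adjusted p = 9.86e-08). Between progenitors the adjusted p was 0.166, and 0.0139 with the block. Col27a1, a cartilage fibrillar collagen, lay between 206 and 448, then 165, 284 and 389, then 2, 13 and 8, and Col16a1, a fibril-associated collagen, at 186, 412 and 566, then 173, 247 and 333, then 13, 18 and 22. Both were lower in neurons than in differentiating progenitors, with log2 differences of -5.19 and -3.73 (adjusted p = 4.82e-05 and 5.21e-05), and only Col16a1, with the block, passed between the progenitor groups (0.0338).

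Other fibril-associated collagens were already lower in differentiating progenitors. Col22a1, known from tissue junctions, was at 629, 893 and 1076, then 155, 199 and 297, then 9, 8 and 3. Col12a1, which decorates collagen I fibrils, was at 639, 1310 and 867, then 288 ± 45.2 (SD, n = 3), then 79, 147 and 88. Neither gene's groups overlapped. Col22a1 fell by 2.01 (SE 0.39, adjusted p = 0.00533) and then by 4.89 (SE 0.39, adjusted p = 5.96e-06) on the log2 scale, and Col12a1 by 1.65 (SE 0.30, adjusted p = 0.00391) and 1.5 (SE 0.30, adjusted p = 0.0023). All 4 calls held when any 1 library was left out. Col25a1, a transmembrane collagen that neurons are known to make, was also highest in proliferating progenitors: 72, 69 and 88, then 28, 36 and 41, then 15, 7 and 7. Its log2 difference between neurons and proliferating progenitors was -2.93 (SE 0.32, adjusted p = 3.34e-05).

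A few collagens ran against this direction. Col14a1, another fibril-associated collagen, peaked in differentiating progenitors, with 18, 13 and 22 before, 58, 164 and 146 there and 11, 6 and 9 in neurons. It rose by 2.62 (SE 0.42, adjusted p = 0.00211) and then fell by 3.58 (SE 0.42, adjusted p = 8.23e-05) on the log2 scale. With the block it was also lower in neurons than in proliferating progenitors (adjusted p = 0.0484, against 0.0768). Col9a2, a chain of the collagen that covers collagen II fibrils, was at 32, 41 and 52, then 67, 104 and 126, then 56, 64 and 73. It rose by 1.21 between progenitors (SE 0.28, adjusted p = 0.0126), a call that ended without differentiating progenitor replicate 2 (0.0514) or 3 (0.0529). With the block, Col9a2 in neurons was lower than in differentiating progenitors (adjusted p = 0.0119, against 0.113) and higher than in proliferating progenitors (0.00631, against 0.0743).

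Col19a1, a fibril-associated collagen linked to synapse formation, read 0, 1 and 0, then 1, 0 and 0, then 13, 35 and 39. Col24a1, a minor fibrillar collagen, read 1, 5 and 12, then 0, 9 and 11, then 32, 49 and 49, and Col20a1 read 19, 14 and 13, then 7, 26 and 26, then 50, 68 and 94. The neuron libraries lay above all 6 progenitor libraries for each of these 3 genes. Against proliferating progenitors the log2 differences were 4.43 (SE 0.57, adjusted p = 9.92e-05), 3.02 (SE 0.98, adjusted p = 0.0228) and 2.10 (SE 0.48, adjusted p = 0.00396). Col19a1 reached 10 in neurons only, and Col24a1 passed the filter only with its neuron libraries, so the filter favoured these 2 calls. The Col24a1 call ended without proliferating progenitor replicate 1 (0.0745) or neuron replicate 2 (0.0624) or 3 (0.0624).

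Col9a3 and Col11a1 were abundant in all 3 groups. Col9a3 was at 209, 435 and 441, then 209, 338 and 435, then 286, 527 and 482, and replicate 1 was the lowest of each group. It passed in neurons against differentiating progenitors with the block (log2 difference 0.41, adjusted p = 0.00649, against 0.394 without it) and against proliferating progenitors (0.28, adjusted p = 0.0341, against 0.543). Col11a1, which is built into collagen II fibrils, was at 811, 1542 and 1572, then 700, 1284 and 1553, then 360, 779 and 782. Its log2 difference between neurons and proliferating progenitors was -1.05 (SE 0.41, adjusted p = 0.0464). That call ended without proliferating progenitor replicate 2 (0.136) or 3 (0.139), differentiating progenitor replicate 2 (0.0628) or neuron replicate 1 (0.146), and without the intensity trend (0.0663). With the block it was kept, at an adjusted p of 4.17e-07. Between neurons and differentiating progenitors, whose groups overlapped, the log2 difference was -0.89, and each neuron library was lower than the differentiating progenitor library of its number. This did not pass in the fit of all 9 libraries without block or scaling (adjusted p = 0.0943). It passed with the block (2.11e-06), with replicates 2 and 3 alone (0.000196) and without differentiating progenitor replicate 1 (0.0304). It also passed when every library was scaled to the same total (0.0397).

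The remaining collagens are given by range. Col5a1 and Col5a2, chains of the collagen that starts fibrils, ran from 475 to 1772 and from 486 to 1179 in progenitors and from 174 to 294 and 97 to 233 in neurons, where both were lower than in proliferating progenitors (adjusted p = 6.52e-05 and 0.00112). Col17a1, a transmembrane collagen of hemidesmosomes, read 14 to 36 in proliferating progenitors and at most 1 in neurons (adjusted p = 4.62e-05). Col7a1, Col9a1, Col23a1, Col11a2 and Col8a2 passed in none of the 3 comparisons without the block. With it, Col11a2, at 259, 519 and 489 in neurons against 175, 242 and 345 in proliferating progenitors, was higher in neurons than in proliferating and in differentiating progenitors (adjusted p = 0.000808 and 0.000455). Col7a1, the anchoring collagen of skin, was then lower than in proliferating progenitors both in neurons (0.000102) and in differentiating progenitors (0.000569). Col8a2 was lower in neurons than in differentiating and in proliferating progenitors (0.00808 and 0.00885), and Col23a1 was higher in neurons than in differentiating progenitors (0.048). Col6a4, Col6a6, Col5a3, Col8a1, Col13a1 and Col28a1 did not reach the filter and read at most 14.

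**Figure D3:**
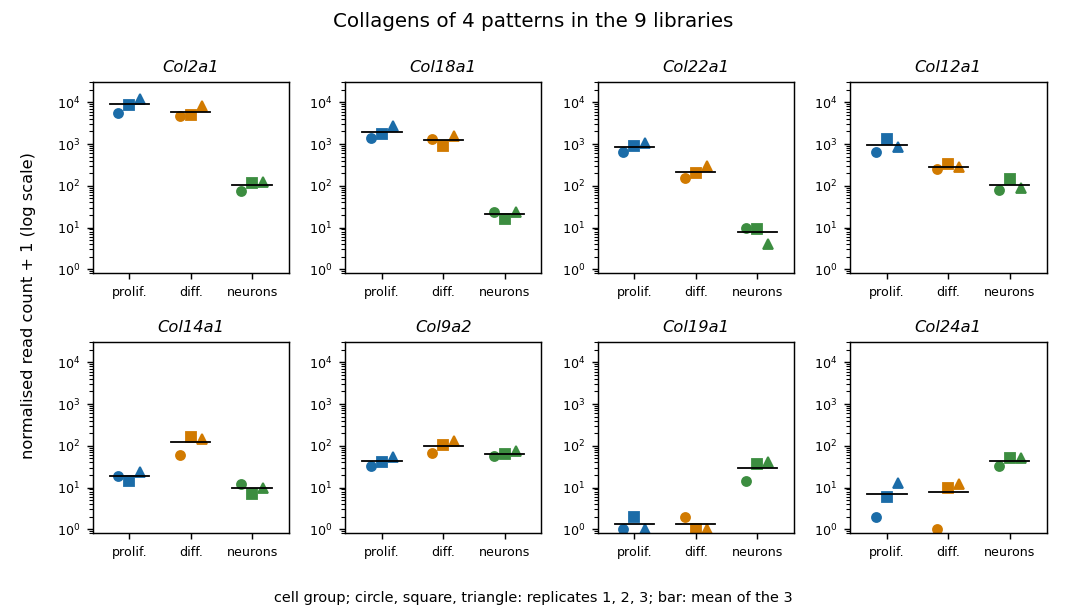
Normalised read counts plus 1 (log scale) of 8 collagens in the 9 libraries, 1 point per replicate and a bar at the mean of each group of 3. Col2a1 and Col18a1 stay above 900 in every progenitor library and at 120 or less in neurons, Col22a1 and Col12a1 fall in both steps, Col14a1 and Col9a2 have their highest mean in differentiating progenitors, and Col19a1 and Col24a1 are highest in neurons.

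The collagens typical of fibroblasts and mural cells varied widely between the libraries of proliferating progenitors. Col3a1, the fibrillar collagen of vessel walls, was at 83, 303 and 1516 in proliferating progenitors, 32, 2 and 14 in differentiating progenitors and then 0, 1 and 11 in neurons. Col1a1 and Col1a2, which form collagen I, were at 62, 190 and 639 and at 58, 199 and 712 in proliferating progenitors. In differentiating progenitors they were at 43, 5 and 26 and at 21, 5 and 22, and in neurons at 6, 10 and 30 and at 2, 0 and 2. The spread between libraries of proliferating progenitors was 18.3-fold, 10.3-fold and 12.3-fold, with replicate 3 the highest each time.

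All 3 were called lower in differentiating than in proliferating progenitors, with log2 differences of -4.89 for Col3a1 (SE 1.29, adjusted p = 0.0234), -3.36 for Col1a1 (SE 0.98, adjusted p = 0.0355) and -3.81 for Col1a2 (SE 0.92, adjusted p = 0.0153). In the authors' deposited table the same comparisons had adjusted p of 0.39, 0.37 and 0.37. The Col3a1 call ended without proliferating progenitor replicate 2 (0.0641) or 3 (0.0817) or differentiating progenitor replicate 2 (0.0893) or 3 (0.0588). The Col1a1 call ended without those same 4 libraries (0.0901, 0.118, 0.124 and 0.0719), without neuron replicate 2 (0.0546), without the intensity trend (0.0523) and in a fit of the 2 groups alone (0.0539). The Col1a2 call ended without differentiating progenitor replicate 2 (0.062).

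The collagen VI chains, which form beaded filaments around cells, shared this spread. Col6a1 was at 6, 41 and 117 in proliferating progenitors and at 5 or less elsewhere, and was not tested. Col6a2 ranged from 28 to 130 and Col6a3 from 8 to 181 in proliferating progenitors. Both were lower in neurons, at 10 or less and 3 or less (adjusted p = 0.00267 and 0.00486), and with the block Col6a3 was also lower there than in differentiating progenitors (0.0324, against 0.0629). In the authors' deposited table, neurons against proliferating progenitors had adjusted p of 0.052 for Col6a2 and 0.1 for Col6a3. Col15a1, a collagen of vessel basement membranes, was at 17, 34 and 96, then 15, 5 and 7, then 17, 46 and 40. Itga11, a receptor for fibrillar collagen on fibroblasts, was at 7, 22 and 72, and at 4 or less in the other 6 libraries, and was not tested.

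Of the 60 members with a mean of at least 10 and no 0 in proliferating progenitors, 12 differed at least 4-fold between the 3 libraries of that group. Replicate 3 was the highest for 11 of these 12, and the exception was Itgal. It was also the highest for many members of smaller spread, among them Col2a1, Col18a1, Lamb2, Lama1 and Itga5. Replicate 2 was the highest for others, such as Itgb1, Lamc1 and Itga6. A peak in replicate 3 was therefore not particular to the 12. The median spread over the 60 was 1.96-fold, and 31 stayed under 2-fold. The endothelial, mural and meningeal marker sums were also highest in replicate 3, the last with 242, 190 and 344 in the 3 libraries. Of 10 meningeal markers measured, none was at 0 in all 3 libraries of proliferating progenitors, 1 was in differentiating progenitors and 6 were in neurons. The markers of this list did not run together. Lum, a fibroblast gene, read 1, 9 and 31 in proliferating progenitors and 2 or less elsewhere, whereas Ogn read 22, 15 and 10 and Crabp2 173, 77 and 147 in the same libraries. Dcn was higher in differentiating progenitors (59, 66 and 62) than in proliferating ones (17, 27 and 49), and Islr read 46, 54 and 35 in neurons against 22, 23 and 49. The part of vessel and meningeal cells in these collagen values was not tested.

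**Figure D4:**
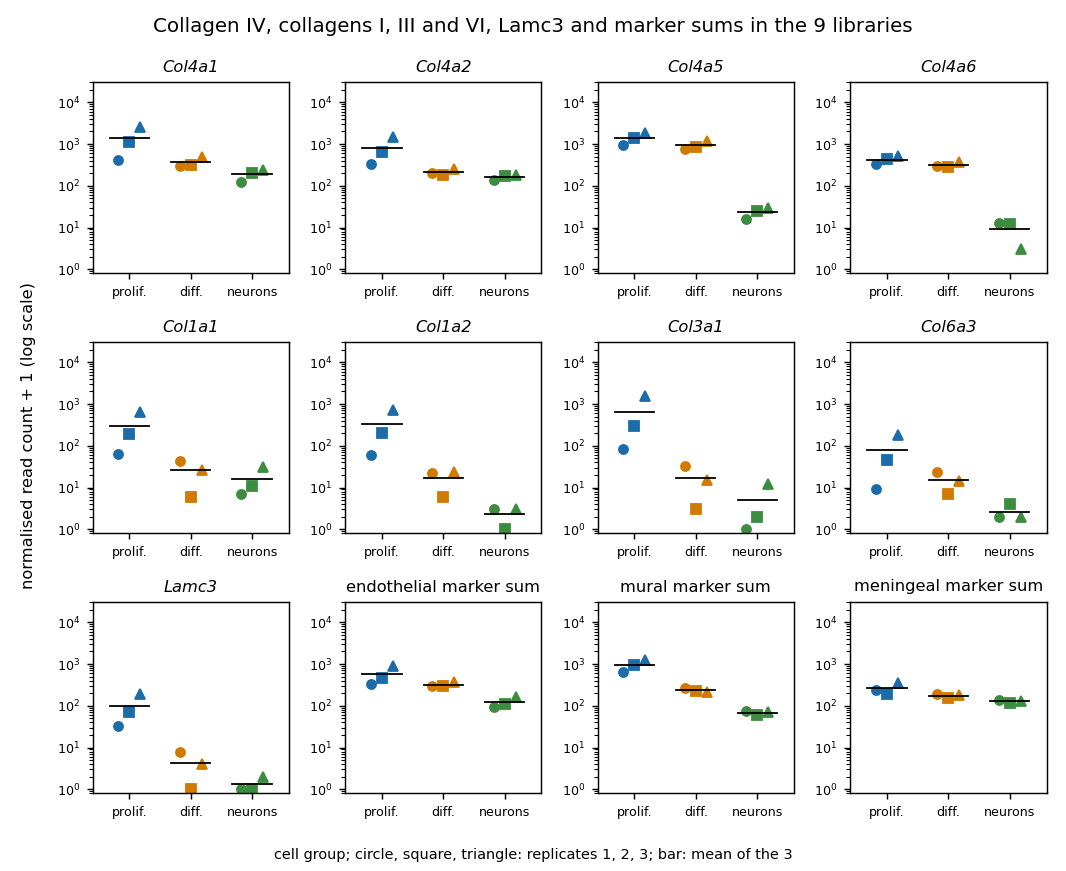
Normalised read counts plus 1 (log scale) in the 9 libraries of 4 collagen IV chains, 4 collagens of fibroblasts and mural cells, Lamc3 and the sums of the endothelial, mural and meningeal marker lists, 1 point per replicate and a bar at the mean of each group of 3. Within proliferating progenitors, Col3a1 runs from 83 to 1516 while Col4a6 runs from 328 to 505, and the endothelial sum runs from 328 to 900.

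Among integrin beta subunits, Itgb1, the shared partner of most alpha subunits, was abundant everywhere: 3472, 4260 and 3550 in proliferating progenitors and 3281, 3769 and 3711 in differentiating progenitors, while the neurons had 2382, 2663 and 2740. The progenitor groups overlapped, with a log2 difference of -0.06 (SE 0.11, adjusted p = 0.745), and neurons were lower than proliferating progenitors (-0.53, SE 0.11, adjusted p = 0.00169). Itgb8 and Itgb5 fell in both steps. Itgb8, whose dimer with Itgav activates latent TGF-beta and which radial glia are known to use, was at 3397, 3546 and 2753, then 1823, 1394 and 1355, then 164, 175 and 164. It fell by 1.09 (SE 0.14, adjusted p = 0.000569) and by 3.16 (SE 0.14, adjusted p = 1.89e-07) on the log2 scale, with no overlap.

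Itgb5, which pairs with Itgav to bind vitronectin, fell more steeply between progenitors: 233, 325 and 219, then 77, 74 and 62, then 5, 10 and 4. The log2 differences were -1.84 (SE 0.31, adjusted p = 0.0027) and -3.38 (SE 0.31, adjusted p = 1.62e-05). Per kilobase, Itgb1 made up 70.8 ± 2.00% of the summed level of the 7 beta subunits in proliferating progenitors, 84.0 ± 2.98% in differentiating progenitors and 95.4 ± 0.685% in neurons (SD, n = 3). Itgb8 made up 22.5 ± 2.09%, 13.3 ± 2.82% and 2.28 ± 0.145%, and Itgb5 5.87 ± 0.613%, 2.02 ± 0.278% and 0.282 ± 0.137%. Neither share overlapped between groups.

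Itgb4, the partner of Itga6 in hemidesmosomes, stayed between 25 and 58 and was higher in neurons than in proliferating progenitors (log2 difference 0.94, SE 0.25, adjusted p = 0.00898). Itgb3, which pairs with Itgav and with the platelet subunit Itga2b, was at 14, 10 and 21, then 5, 5 and 4, then 22, 14 and 10. It fell between the progenitor groups by 1.44 (SE 0.38, adjusted p = 0.0234) and was higher in neurons than in differentiating progenitors by 1.47 (SE 0.38, adjusted p = 0.00966) on the log2 scale. The fall was no longer called without proliferating progenitor replicate 1 (0.0533) or 3 (0.085) or differentiating progenitor replicate 2 (0.0592) or 3 (0.0754). In the authors' deposited table the adjusted p of this fall was 0.1. Itgb7 and Itgb2, subunits of leukocytes, reached at most 13 and 8.

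Of the alpha subunits that bind the RGD motif, Itgav and Itga5 were lowest in neurons. Itgav was at 1251, 1550 and 1445, then 837, 836 and 722, then 106, 110 and 118. No groups overlapped, with log2 differences of -0.82 (SE 0.11, adjusted p = 0.000949) and -2.83 (SE 0.11, adjusted p = 1.34e-07). Itga5, which pairs with Itgb1 as the classical fibronectin receptor, was at 497, 748 and 945, then 368, 345 and 450, then 4, 1 and 9. Its log2 difference between neurons and proliferating progenitors was -7.25 (SE 0.51, adjusted p = 1.67e-06). The difference between progenitors did not pass (-0.87, SE 0.51, adjusted p = 0.267), although the groups did not overlap. In a fit of the 2 progenitor groups alone Itga5 passed (SE 0.24, adjusted p = 0.0433). Itga2b read 15 to 35 in all 9 libraries and passed in no comparison, and Itga8 read 17 to 79. With the block, Itga8 was higher than in proliferating progenitors both in differentiating progenitors (adjusted p = 0.0485, against 0.251) and in neurons (0.0104, against 0.082).

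Laminin-binding subunits moved in opposite directions. Itga6, the alpha subunit with the highest level per kilobase in every group, was at 2494, 2931 and 2693, then 1623, 1503 and 1670, then 1137, 1183 and 1345. Itga3, whose loss is known to disturb neuronal migration, was low and rose: 67, 82 and 94, then 115, 159 and 190, then 255, 327 and 331. Itga6 fell by 0.76 (SE 0.10, adjusted p = 0.000572) and by 0.39 (SE 0.10, adjusted p = 0.00736) on the log2 scale. Itga3 rose by 0.91 (SE 0.22, adjusted p = 0.0161) and by 0.99 (SE 0.22, adjusted p = 0.0041). The earlier Itga3 rise was lost without differentiating progenitor replicate 2 (0.0591) or 3 (0.0634).

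Per kilobase, Itga6 made up 42.1 ± 4.25%, 36.8 ± 2.21% and 51.7 ± 1.42% of the summed alpha subunits in the 3 groups, and Itga3 1.97 ± 0.0874%, 5.59 ± 1.06% and 20.3 ± 1.63%. Itga5 and Itgav, which held 22.9 ± 4.15% and 18.4 ± 1.33% in proliferating progenitors, held 0.394 ± 0.310% and 3.97 ± 0.198% in neurons. Itga7, the muscle laminin receptor, read 20 or less throughout.

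Itga4 and Itga9 form a subfamily of alpha subunits that bind fibronectin, VCAM or tenascin-C, and both peaked in differentiating progenitors. Itga4 was at 112, 57 and 82, then 395, 588 and 532, then 347, 210 and 297. Itga9 was at 32, 56 and 68, then 115, 152 and 144, then 34, 30 and 39. Differentiating progenitors lay above both other groups without overlap for each gene. Itga4 rose by 2.61 (SE 0.28, adjusted p = 0.000233) and Itga9 by 1.44 (SE 0.28, adjusted p = 0.00595) on the log2 scale. Itga9 then fell by 1.96 (SE 0.28, adjusted p = 0.000304), and with the block it was lower in neurons than in proliferating progenitors (adjusted p = 0.0485, against 0.136). The fall of Itga4, of 0.84 (SE 0.28, adjusted p = 0.031), was no longer called without differentiating progenitor replicate 2 (0.103) or 3 (0.0871) or neuron replicate 2 (0.115) or 3 (0.06).

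Of the collagen-binding subunits, Itga1 and Itga2 were close to 0 in neurons. Itga1 was at 100, 135 and 204, then 62, 60 and 63, then 1, 3 and 2, and its neighbour in the genome Itga2 at 61, 52 and 69, then 28, 29 and 37, then 0, 1 and 5. Between neurons and proliferating progenitors the log2 difference was -5.61 for Itga1 (SE 0.34, adjusted p = 6.24e-07) and -4.74 for Itga2 (SE 0.56, adjusted p = 6.08e-05). Between progenitors, Itga1 passed (log2 difference -1.17, SE 0.34, adjusted p = 0.0329), and the call ended without proliferating progenitor replicate 2 (0.0834) or 3 (0.119) or any differentiating progenitor replicate (0.0644, 0.0974 and 0.0863). Itga2 did not pass (-0.93, SE 0.56, adjusted p = 0.285), although its groups did not overlap. In a fit of the 2 progenitor groups alone Itga2 passed (SE 0.24, adjusted p = 0.0315). Itga10, a cartilage subunit, was at 158, 220 and 200, then 111, 142 and 164, then 77, 124 and 126. Its log2 difference between neurons and proliferating progenitors was -0.84 (SE 0.24, adjusted p = 0.0134), a call that ended without proliferating progenitor replicate 2 (0.0518). Differentiating progenitors overlapped both other groups and differed from them only with the block (adjusted p = 0.013 from proliferating progenitors, against 0.204, and 0.0266 from neurons, against 0.24).

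Leukocyte subunits were close to the floor. Itgam, the subunit of microglia and other myeloid cells, was at 11, 19 and 12, then 1, 9 and 18, then 1, 0 and 0, and its partner Itgb2 at 8, 5 and 3, then 0, 0 and 5, then 0 in all 3 neuron libraries. Itgal, Itgax and Itgae reached at most 22, 1 and 9. Itgam was the only one of these tested and was lower in neurons than in proliferating progenitors (log2 difference -3.54, SE 0.77, adjusted p = 0.00287). Beside it, microglial markers summed to 443 to 534, 316 to 370 and 150 to 174 in the 3 groups, and their part was not tested. Itgbl1 read 4, 16 and 2, then 1, 3 and 0, then 27, 27 and 24. It was higher in neurons than in differentiating (log2 difference 3.75, SE 0.69, adjusted p = 0.00139) and proliferating progenitors (2.09, SE 0.69, adjusted p = 0.0251). Itgbl1 passed the filter only with its neuron libraries, so the filter favoured these calls. The second call ended without proliferating progenitor replicate 1 (0.0674) or 3 (0.0907) or any neuron replicate (0.058, 0.0639 and 0.0553). With replicates 2 and 3 alone it ended too (0.0998). With the block Itgbl1 was lower in differentiating than in proliferating progenitors (adjusted p = 0.0182, against 0.119).

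**Figure D5:**
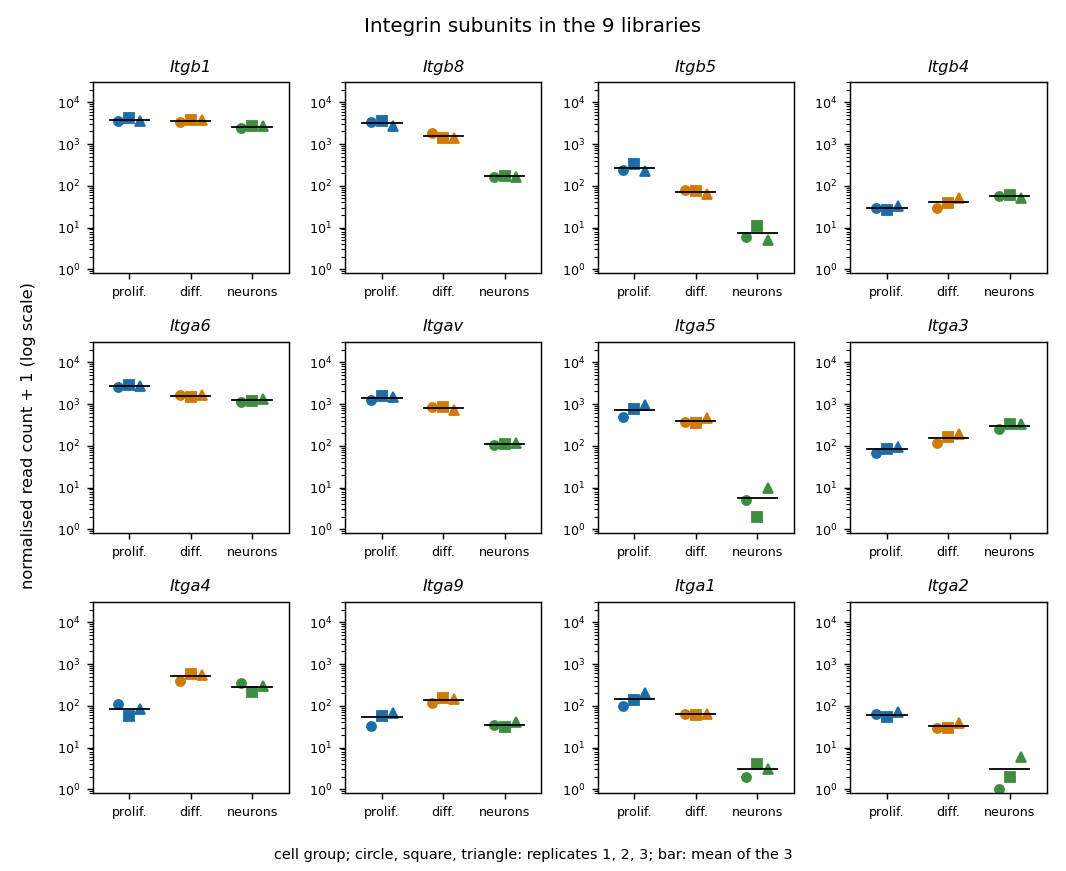
Normalised read counts plus 1 (log scale) of 12 integrin subunits in the 9 libraries, 1 point per replicate and a bar at the mean of each group of 3. Itgb1 lies between 2382 and 4260 in all libraries, Itgb8, Itgb5, Itgav and Itga5 drop towards neurons, Itga3 climbs, and Itga4 and Itga9 are highest in differentiating progenitors.

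Summed per kilobase, the collagens held 1990, 3220 and 4800 normalised read counts per kilobase in proliferating progenitors, 1590, 1800 and 2670 in differentiating progenitors and then 319, 530 and 535 in neurons. Laminins held 1200, 1500 and 1720, then 886, 853 and 960, then 369, 441 and 413. Integrins held 1840, 2230 and 1990, then 1460, 1550 and 1580, then 853, 943 and 990. The collagen sums of the 2 progenitor groups overlapped, whereas the laminin and integrin sums overlapped between no groups. By these sums integrins outweighed collagens in neurons, and collagens outweighed integrins in all libraries of both progenitor groups.

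The partners of these proteins were examined from lists drawn up with earlier results of these data known. Of 37 matrix proteins that bind laminins, collagens or integrins, 31 were tested, and 5 were higher and 23 lower in neurons than in proliferating progenitors, where 32.2% of all tested genes were called higher and 31.1% lower, with a median log2 difference of -2.04 against -0.02 over all tested genes. Nid1, the nidogen that links laminin to collagen IV, was at 101, 261 and 428, then 55, 46 and 36, then 20, 8 and 21. Hspg2, which encodes perlecan, was at 3129, 4636 and 5377, then 3706, 4076 and 4475, then 462, 446 and 503. Nid1 spread between proliferating progenitor libraries like Col4a1, while Hspg2 overlapped between the progenitor groups, and both were lower in neurons, with log2 differences of -3.81 (SE 0.53, adjusted p = 0.000185) and -3.18 (SE 0.18, adjusted p = 4.22e-07). Integrin ligands were among the 4 of these matrix proteins with the smallest adjusted p in any comparison. Mfge8, a ligand of Itgav dimers, was at 3934, 6440 and 4855 in proliferating progenitors against 26, 30 and 31 in neurons. Tnc, which encodes tenascin-C, was at 6432, 7522 and 5188 against 39, 62 and 28, and Cyr61 at 3478, 3997 and 4259 against 19, 29 and 16.

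Of 28 genes that modify, fold or cleave collagen, 27 were tested, with 7 higher and 14 lower in neurons than in proliferating progenitors and a median of -0.54. The 7 are a share below the 32.2% of all tested genes called higher, and 31.1% were called lower. Serpinh1, the collagen chaperone of the endoplasmic reticulum, was at 4848, 5160 and 4901, then 3990, 3502 and 3117, then 600, 523 and 509. Against it ran Adamts3, a procollagen propeptidase that also processes reelin and VEGF-C, at 1115, 1126 and 1091, then 482, 399 and 381, then 5204, 6034 and 6014. Adamts3 was lowest in differentiating progenitors and 3.77 higher in neurons on the log2 scale (SE 0.11, adjusted p = 4.7e-08), while Serpinh1 had a log2 difference of -3.19 between neurons and proliferating progenitors (SE 0.11, adjusted p = 2.75e-08).

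Among 11 further matrix receptors, 1 was higher and 10 were lower in neurons than in proliferating progenitors, against the same background of 32.2% and 31.1%, with a median of -1.92. Gpr56, a receptor for collagen III whose loss breaks the pial basement membrane, stood out by its peak: 10073, 10343 and 10107, then 13418, 14739 and 14049, then 7500, 6110 and 6648. It rose by 0.47 (SE 0.09, adjusted p = 0.00475) and fell by 1.06 (SE 0.09, adjusted p = 7.92e-06) on the log2 scale. Dag1, which encodes the laminin receptor dystroglycan, was at 4139, 3607 and 3248, then 3245, 2151 and 1954, then 2454, 2018 and 1678, and was lower in neurons than in proliferating progenitors (log2 difference -0.85, SE 0.21, adjusted p = 0.00536). With the block, Dag1 passed in both steps (adjusted p = 0.000173 and 0.0183). Cd44, a hyaluronan receptor, was at 73, 54 and 62, then 15, 8 and 15, and at 0 in all 3 neuron libraries.

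Of 35 genes that couple integrins to actin or signalling, 32 were tested, with 9 higher and 16 lower in neurons than in proliferating progenitors and a median of -0.62. The 9 are close to the 32.2% of all tested genes called higher, and 31.1% were called lower. Tln1, the talin that activates integrins, was at 2326, 3176 and 3316, then 1807, 2038 and 2013, then 726, 835 and 820, and was lower in neurons (log2 difference -1.87, SE 0.14, adjusted p = 2.23e-06). The tensins Tns1 and Tns3 fell further, from 2605 or more and 3293 or more in proliferating progenitors to 73 or less and 94 or less in neurons. Of 23 matrix proteases and inhibitors, 22 were tested, with 9 higher and 10 lower (32.2% and 31.1% over all tested genes) and a median of -0.02. Mmp24, a membrane-bound protease of neurons, rose from 42, 35 and 21 through 468, 519 and 379 to 2838, 2615 and 2402, a log2 difference of 6.33 between neurons and proliferating progenitors (SE 0.24, adjusted p = 4.23e-08).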

How the data were processed

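Poly-A RNA libraries from 9 pools of sorted cells were sequenced strand-specifically, per the labels' protocols. The submitters' processing notes name build mm9, DESeq 1.8.1, bedtools 2.11, BWA and CASAVA 1.8.0. Their roles and the strand setting of counting are not given in the sources used here. For 21210 genes of Ensembl, per the file headers, the authors deposited a normalised score per gene and library (whole-number normalised read counts), fold ratios with an adjusted p-value per comparison, and gene lengths. Since the values are rounded normalised counts, no count model was fitted. Reads per library were estimated from which small values occur.

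The log2(value + 1) scale, which understates changes of low genes, was tested with limma 3.58.1 (R 4.3.3, trended variance). All 9 libraries entered 1 fit with 3 group means (6 residual degrees of freedom), for genes reading 10 or higher in 3 or more libraries, adjusted by Benjamini-Hochberg over 15828 genes at 0.05. The fit was also run on simulated data, whose outcome is not given here and is not used to back any call. Equal replicate numbers pair the libraries: deviations from the group means correlated across genes in the 9 same-numbered pairs (r from 0.507 to 0.767), against -0.64 to 0.428 in the 18 others. A replicate block (4 residual degrees of freedom) is printed where it changes a call.

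The genes and lists were chosen with earlier results of these data known. Values in every library were given for the 8 tested genes per family with the smallest adjusted p, the 5 with the highest level per kilobase, genes fixed for what they are known for, and up to 4 per partner list. Others named were added to complete a family, and 1 tested gene is not reported here. Levels between genes were compared per kilobase of deposited gene length. Upstream sequences came from RefSeq (GRCm38.p6), not the build of the reads.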

Additional observations from a re-analysis of the deposited data

How the results depend on the processing

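With a replicate block, 8 genes were higher and 33 lower in differentiating than in proliferating progenitors, 13 and 40 in neurons against differentiating progenitors, and 14 and 43 in neurons against proliferating progenitors. The calls over all 15828 tested genes rose too, to 3793 and 3489, 5661 and 5620, and 6129 and 6245. The block changed calls of named genes in 31 comparisons, all of them gained. A filter of at least 50 in at least 3 libraries left 45 of the genes and lowered the genes higher in neurons from 10 to 3 (against differentiating progenitors) and from 10 to 5 (against proliferating progenitors). The genes lower in neurons went from 34 to 29 and from 39 to 32. Over all 13130 genes passing this filter, 3900 were higher and 3584 lower in neurons than in differentiating progenitors. Against proliferating progenitors, 4559 were higher and 4060 lower. Leaving out 1 library at a time gave 10 to 23 genes lower and 5 to 7 higher between progenitors. It gave 29 to 35 lower and 7 to 11 higher in neurons against differentiating progenitors, and 38 to 40 lower and 8 to 11 higher against proliferating progenitors. Over all tested genes these fits gave 1076 to 1864 lower and 1585 to 2199 higher between progenitors. In neurons they gave 3741 to 4252 lower and 3828 to 4465 higher against differentiating progenitors. Against proliferating progenitors they gave 4507 to 5026 lower and 4633 to 5190 higher. Of the calls of collagen, laminin and integrin genes, 10 of 22 lower and 5 of 7 higher between progenitors were kept in all 9 such fits. In the other comparisons, 28 of 34 and 7 of 10, and 37 of 39 and 8 of 10, were kept. No called value changed sign under any setting, while 52 uncalled ones did. Pseudocounts of 0.5 and 5, no filter, no trend, total scaling, replicates 2 and 3 alone and the 2 groups alone kept each count within 1.5 times. Low values limit 13 genes that the filter removed, of which 7 read 10 or higher in 1 or 2 libraries, among them Col6a1 and Itga11.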
